A study of Mus musculus with 2 samples.

Results

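The transcription factor genes of the myeloid lineage (Spi1, Cebpa, Cebpb, Cebpe, Gfi1 and Irf8) and 4 receptor genes for colony-stimulating factors (Csf1r, Csf2ra, Csf2rb and Csf3r) were followed in mouse pro-B cells with and without the histone methyltransferase gene Setdb1. They were chosen by name, as 10 of 36980 gene symbols, and all 26 of their transcripts in the deposited table of 93615 were used. The cells were pro-B cells, B cell precursors sorted from bone marrow and grown for 4 days with interleukin 7 at 5 ng/µl. One culture had undeleted alleles (Setdb1 C/C) and the other deleted alleles (Setdb1 Δ/Δ), and both carried a bcl2 transgene. The labels give neither the age or strain of the animals, nor the number pooled, nor the promoter that drives the transgene or the recombinase. Each genotype had 1 library of RNA freed of ribosomal RNA. No difference below therefore has a replicate check, no p-value is given, and every statement is about these libraries.

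Myeloid cells arise from bone marrow progenitors under a small set of factors. PU.1, the product of Spi1, is an ETS family factor needed for both macrophages and early B cells, and the C/EBP factors open the granulocyte and macrophage programmes and can turn B cell precursors into macrophages when forced into them. The receptors then tie survival and growth to cytokines: M-CSF binds CSF1R, GM-CSF binds the α chain CSF2RA paired with the common β chain CSF2RB, and G-CSF binds CSF3R.

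The promoters of Csf3r and Csf2ra are shown because one gene was higher in Δ/Δ and the other was not, while both hold the short core that PU.1 binds. Sequences are from RefSeq (GRCm38.p6), in which 6 of the 10 genes had 8 windows of 300 bases, from 250 before to 50 after an annotated start. The Csf3r window is chr4:126024409-126024708 (plus strand) and the Csf2ra window chr19:61228369-61228668 (minus strand). Capitals mark GAGGAA.
Csf3r: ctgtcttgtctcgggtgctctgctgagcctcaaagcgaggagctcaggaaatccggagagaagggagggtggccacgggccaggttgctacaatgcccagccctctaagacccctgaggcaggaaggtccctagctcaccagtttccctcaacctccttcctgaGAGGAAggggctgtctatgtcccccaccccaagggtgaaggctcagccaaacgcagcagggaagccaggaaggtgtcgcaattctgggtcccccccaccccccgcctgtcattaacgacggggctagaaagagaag
Csf2ra: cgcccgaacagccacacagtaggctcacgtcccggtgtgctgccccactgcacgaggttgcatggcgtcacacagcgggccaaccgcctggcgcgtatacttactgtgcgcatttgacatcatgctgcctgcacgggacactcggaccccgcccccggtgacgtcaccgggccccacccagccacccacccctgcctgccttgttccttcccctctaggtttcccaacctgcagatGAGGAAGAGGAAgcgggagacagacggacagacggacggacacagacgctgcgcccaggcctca

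Counted from the annotated start as 0, GAGGAA stood at bases -86 to -81 of Csf3r and, as an adjacent pair, at -14 to -9 and -8 to -3 of Csf2ra. It was searched on both strands and was present in 28.3% of all 32851 windows of that length. The C/EBP motif TTGCNNAA (10.8% of windows) had 1 match among the windows of the 10 genes, at -143 to -136 of Gfi1. The composite ETS-IRF motif, GGAA followed by any 2 bases and GAAA (2.72% of windows), and the IRF motif, GAAA followed by any 2 bases and GAAA (3.44%), had 0. The last motifs can overlap, and both were also searched on both strands. A match is a description of the letters only. Positions are counted from RefSeq starts, and the Csf3r transcripts valued below start elsewhere in GENCODE M21. ENSMUST00000106162 starts within the window, at 126024550, and ENSMUST00000153968 past its end, at 126024726. The position given for Csf3r therefore does not hold for these transcripts.

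A second pair of sequences bears on Csf2rb. The mouse has a neighbouring copy of this gene, Csf2rb2, whose product serves interleukin 3 only. The coding sequences were identical at 2503 of 2628 aligned bases (95.2%). A stretch of 1 read length, bases 37 to 137 of both coding sequences, is shown because it has about the average difference between the copies, with the 5 differing bases in capitals (GENCODE M21 transcripts).
Csf2rb: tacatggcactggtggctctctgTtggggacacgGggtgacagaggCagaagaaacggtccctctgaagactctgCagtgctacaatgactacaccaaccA
Csf2rb2: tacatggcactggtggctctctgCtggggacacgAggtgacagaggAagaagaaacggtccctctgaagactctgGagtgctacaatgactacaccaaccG

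Values are RPKM, reads per kilobase of transcript and per M reads of the library, as deposited. The libraries held 170.6 M (C/C) and 193.3 M (Δ/Δ) reads, where M stands for mega, recovered from the values. Each gene is represented by its transcript with the highest mean over the libraries. Genes that reached 1 RPKM in either library are termed measured, and were called higher or lower when log2((Δ/Δ + 0.5)/(C/C + 0.5)) was at least 1 or at most -1. Intervals of ratios are exact 95% intervals for counting error only and take 2 reads as 1 fragment. Setdb1 itself measured 17.0 RPKM in C/C against 12.6 in Δ/Δ over whole transcripts, which does not show how complete the deletion was. All 15 listed B lineage markers were above 1 RPKM in each library, the lowest at 5.88 RPKM in C/C and at 5.07 in Δ/Δ, with ratios that ranged from 0.0732 to 2.12. The libraries also differed in sex markers, with Xist at 0.094 and 23.7 RPKM and Ddx3y at 10.2 and 0.009 RPKM, so genotype and sex cannot be told apart.

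The 10 genes did not differ in 1 direction. The genes under 0.1 RPKM in C/C (Csf3r, Cebpa, Cebpe) were many times higher in Δ/Δ, the transcription factors already well expressed in C/C (Irf8, Spi1, Gfi1) were lower by less than 2-fold, and 2 of the receptors (Csf2rb and, by its most abundant transcript, Csf1r) were under 2-fold higher. Of the 10 genes, 8 were measured, 6 of them in both libraries. By the size rule 1 of the 8 was higher (Csf3r) and 0 were lower, beside 6.28% higher and 6.66% lower among all 12556 measured genes. Csf3r and Cebpb passed the filter through Δ/Δ alone, so the count supports nothing. The median log2 ratio was 0.15 over the 8 and 0.44 over all 10, beside -0.09 over all measured genes and 0.00 over all gene symbols. The size rule understates genes near 0. A plain ratio of at least 2 or at most 0.5, over genes with 20 reads or more in total, took in all 10 and found 3 higher (Cebpa, Cebpe and Csf3r) and 0 lower, beside 11.4% higher and 12.0% lower among 17377 genes. That second rule was chosen after the values were seen. Cebpe (2 and 43 reads) and Csf3r (11 and 193 reads) passed its filter through Δ/Δ alone and could not have come out lower. The second count therefore supports nothing either.

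**Figure D1:**
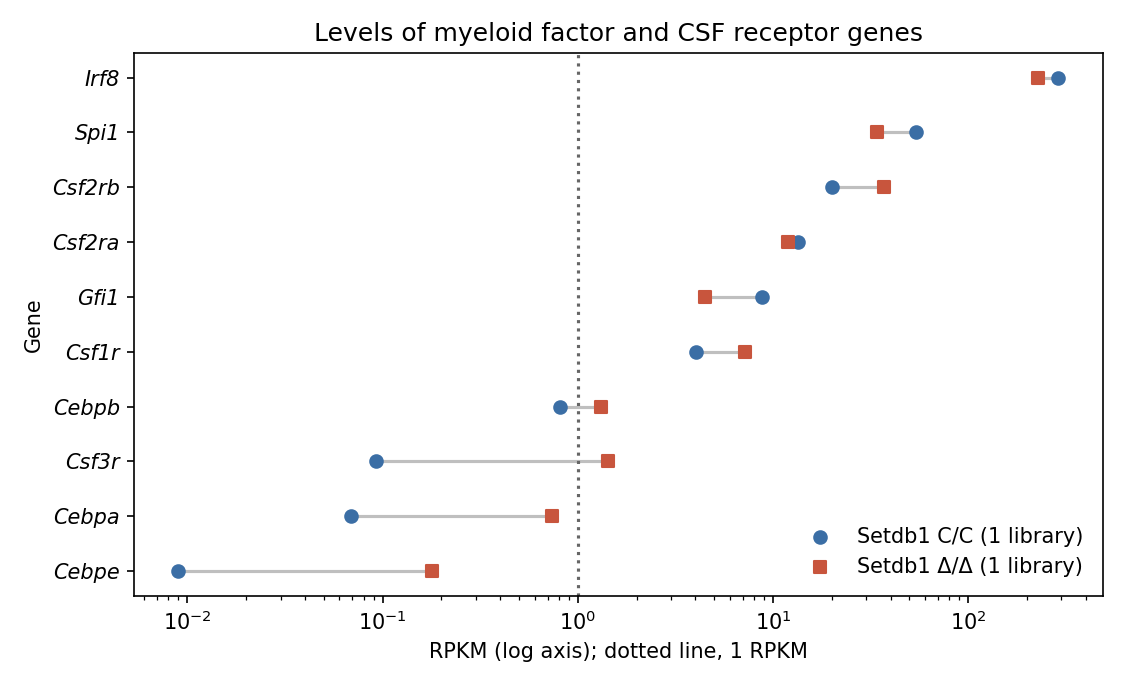
Level of each of the 10 genes in RPKM (log axis), with circles for Setdb1 C/C and squares for Setdb1 Δ/Δ, 1 library each, and a dotted line at 1 RPKM. The distance between the symbols is wide for Csf3r, Cebpa and Cebpe, which lie under 0.1 RPKM in C/C, and narrow for Irf8 and Csf2ra.

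Among the transcription factors, Irf8 was the most abundant in both libraries. IRF8 directs monocyte and dendritic cell development, restrains granulocytes and also acts in B cells. The gene lies on GRCm38 chromosome 8, with ENSMUST00000162658, a listed transcript of 480 bases, from 120736385 to 120753478 on the plus strand. It measured 290.1 RPKM in C/C against 229 in Δ/Δ, for a ratio of 0.789 (interval 0.768 to 0.810). The transcript ENSMUST00000047737, with 9 exons and 2847 bases, measured 169.6 and 133 RPKM, a ratio of 0.786. All 7 listed transcripts were lower in Δ/Δ, with ratios of 0.740 to 0.831. They share exons and are not independent. The lowest of them in level was ENSMUST00000162775, annotated as a retained intron, at 16.0 and 11.9 RPKM.

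Spi1 was next among the factors. It lies on chromosome 2, and ENSMUST00000169852 runs from 91082390 to 91114366 on the plus strand. It measured 54.1 RPKM in C/C against 34.1 in Δ/Δ, for a ratio of 0.630 (interval 0.593 to 0.670) and a log2 ratio of -0.66. The transcript of 5 exons and 2034 bases, ENSMUST00000002180, measured 31.7 and 18.9 RPKM, a ratio of 0.596. PU.1 transcript was thus well above 1 RPKM in both libraries and lower, short of the size rule, in the library labelled Δ/Δ. A single listed transcript had a ratio above 1. ENSMUST00000131400, which consists of the upstream first exon and an exon ahead of the main start, measured 0.201 and 0.439 RPKM from 21 and 52 reads, and its interval of 0.997 to 4.68 included 1.

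Gfi1 encodes a zinc finger repressor that acts in granulocyte and lymphoid development and opposes PU.1. On chromosome 5, its transcript ENSMUST00000159263 (107721606 to 107726036, minus strand) stood at 8.74 RPKM in C/C against 4.47 in Δ/Δ. That is 1.96-fold lower, and the counting interval of the fold, 1.69 to 2.26, spans the 2-fold line, and the gene was just short of the rule with a log2 ratio of -0.90. The 4 listed transcripts lay close together, at ratios of 0.511 to 0.515. The transcript given first shares 82 of its 689 bases with the opposite-strand RNA A430072P03Rik, whereas ENSMUST00000031205, with a ratio of 0.515, shares none.

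The C/EBP genes, each of few or no introns, were low. Cebpa encodes the factor that starts the granulocyte and macrophage programme. Its single listed transcript (chromosome 7, 35119303 to 35121928, plus strand) measured 0.069 RPKM in C/C against 0.741 in Δ/Δ, from 31 and 376 reads. The ratio was 10.7, with an interval of 6.54 to 20.2. The gene stayed under 1 RPKM in both libraries and so was not among the measured genes, although its log2 ratio with the added 0.5 was 1.13. An opposite-strand gene, Gm45091, shares 51 of its 2626 bases. Cebpe, which serves the late steps of granulocyte maturation, lies on chromosome 14 (54710360 to 54712174, minus strand). It measured 0.009 RPKM from 2 reads in C/C against 0.180 from 43 reads in Δ/Δ. The ratio of 20 has an interval of 3.14 to 801.7, so its size is poorly known at this depth. Cebpb, a C/EBP factor of macrophages and of responses to inflammation, lies on chromosome 2 (167688915 to 167690418, plus strand). It measured 0.814 and 1.32 RPKM, a ratio of 1.62 (interval 1.28 to 2.09). Of its 1504 bases, 312 (20.7%) lie in exons of Tmem189 on the other strand, a gene at 22.3 RPKM in C/C against 20.2 in Δ/Δ. The library kit does not mark strand, so reads there cannot be assigned, and the value of Cebpb is uncertain.

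The receptor genes also differed among themselves. Csf3r had the largest ratio of the 4. On chromosome 4, ENSMUST00000153968 (126024726 to 126031896, plus strand) measured 0.093 RPKM in C/C against 1.44 in Δ/Δ, from 11 and 193 reads, with a ratio of 15.4 (interval 6.33 to 39.9). The transcript with the most exons, ENSMUST00000106162, with 17 exons and 3481 bases, gave a firmer value from 72 and 790 reads. It measured 0.121 and 1.17 RPKM, a ratio of 9.70 (interval 6.88 to 14.0). All 4 listed transcripts of Csf3r were higher by the size rule, with log2 ratios of 1.43 to 1.71.

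Csf1r lay on either side of the size rule according to the transcript. On chromosome 18, ENSMUST00000115268 (61105852 to 61132149, plus strand) measured 4.04 RPKM in C/C against 7.17 in Δ/Δ, for a ratio of 1.77 (interval 1.67 to 1.88) and a log2 ratio of 0.76. ENSMUST00000025523 (61105572 to 61131134) ends earlier and measured 2.82 and 6.99 RPKM, a ratio of 2.48 (interval 2.30 to 2.67) and a log2 ratio of 1.17, past the rule. The longer transcript has 873 bases (18.6%) in exons of Hmgxb3, which runs towards it on the other strand, and the shorter one has none. Hmgxb3 measured 12.0 RPKM in C/C against 10.8 in Δ/Δ. The longer transcript held 1378 more reads than the shorter in C/C and 1288 more in Δ/Δ. These differences are net of reads on upstream bases that only the shorter transcript has, so they cannot all be assigned to the 3′ end. The shorter transcript held 1864 reads in C/C and 5224 in Δ/Δ. The choice of the shorter transcript was made after its values were seen.

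**Figure D2:**
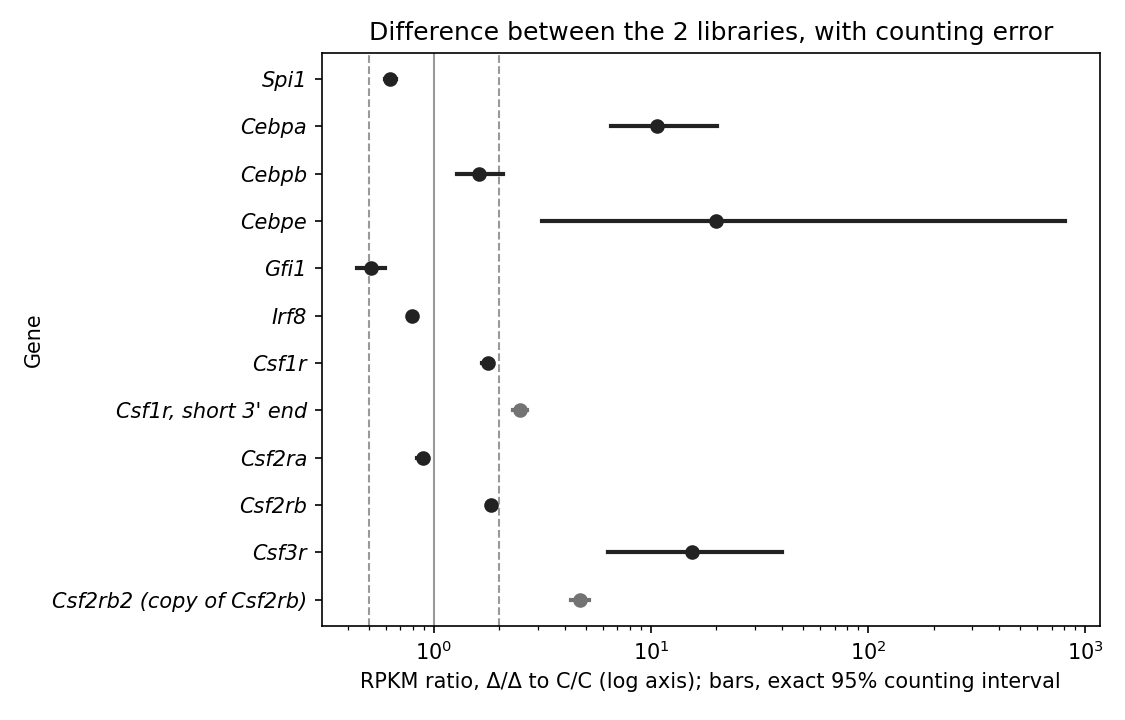
RPKM ratio of Δ/Δ to C/C for the 10 genes (black) and, in grey, for the Csf1r transcript with the shorter 3′ end and for Csf2rb2, on a log axis, with exact 95% counting intervals as bars and dashed lines at 0.5 and 2. Cebpa, Csf3r and the grey points lie beyond 2 with their whole interval, as does Cebpe with the widest one, while Spi1, Irf8 and Csf2ra lie between 0.5 and 1.

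Of the 2 chains of the GM-CSF receptor, only the β chain gene was higher in Δ/Δ. Csf2ra, the ligand-binding α chain, lies on chromosome 19 (61224402 to 61228418, minus strand). It measured 13.5 RPKM in C/C against 12.0 in Δ/Δ, for a ratio of 0.887 (interval 0.835 to 0.942). Its log2 ratio of -0.17 was close to the median of all measured genes, -0.09, and was -0.07 after centring on that median. Csf2rb, the signalling β chain shared with the receptors for interleukin 3 and interleukin 5, lies on chromosome 15 (78325990 to 78351000, plus strand). It measured 20.2 RPKM in C/C against 37.2 in Δ/Δ, for a ratio of 1.84 (interval 1.8 to 1.89), which was short of the rule at a log2 ratio of 0.87. Its copy Csf2rb2 measured 1.31 and 6.17 RPKM, a ratio of 4.72 (interval 4.29 to 5.18), past the rule. Of the 4664 windows of 101 bases in the Csf2rb transcript, 329 (7.05%) also occur in Csf2rb2, so part of the reads of either copy could come from the other. The counting of such reads was not stated. The other α chains that pair with this β chain were not higher, with Il3ra at 12.3 and 10.5 RPKM and Il5ra at 3.59 and 2.21 RPKM.

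The order of the levels shifted at 3 places between the libraries. In C/C it ran Irf8, Spi1, Csf2rb, Csf2ra, Gfi1, Csf1r, Cebpb, Csf3r, Cebpa and Cebpe. Only the neighbours Csf3r and Cebpa did not differ beyond counting error there, at a ratio of 1.35 (interval 0.480 to 4.12). In Δ/Δ, Csf2rb stood above Spi1, Csf1r above Gfi1, and Csf3r above Cebpb. The last pair did not differ beyond counting error, at 1.09 (interval 0.846 to 1.40), and the level of Csf2rb was 1.09 times that of Spi1 (interval 1.04 to 1.15). Partial transcripts of high density raise Irf8 and Spi1 in this order. With the transcript of 5 exons for Spi1, Csf2rb was 1.97-fold above it in Δ/Δ. With the longest transcripts, Irf8 was represented by the retained intron form and stood below Spi1 and Csf2rb in C/C. Likeness of pattern to other genes was not ranked, because 2 libraries give a single difference.

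**Figure D3:**
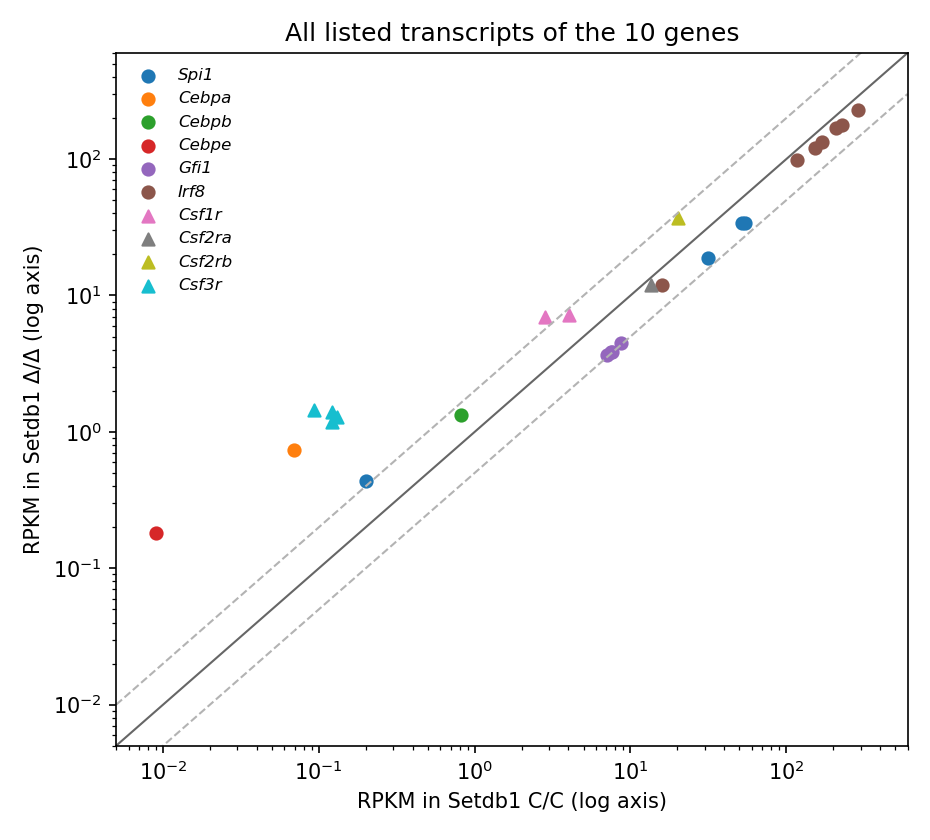
RPKM of all 26 listed transcripts of the 10 genes in C/C (horizontal) and Δ/Δ (vertical), both on log axes, with circles for transcription factors, triangles for receptors, a solid line for equal values and dashed lines for 2-fold differences. The 4 Csf3r transcripts, Cebpa and Cebpe lie far above the upper dashed line, the Irf8 and Gfi1 transcripts lie below the solid line, and the Csf1r pair lies on either side of the upper dashed line.

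Apart from Csf1, the listed ligand genes of these receptors were under 1 RPKM in both libraries. Of 13 listed ligands and related receptors 5 were measured, of which 1 was higher (Csf2rb2) and 0 lower, beside 6.28% and 6.66% of all measured genes. Csf1, the M-CSF gene, was the measured ligand, at 3.34 RPKM in C/C against 6.06 in Δ/Δ, a ratio of 1.82 that did not pass the rule. The ligand genes that follow are named after their values were seen. Csf3, the G-CSF gene, measured 0.075 and 0.040 RPKM, Csf2, the GM-CSF gene, was listed at 0 in C/C but had 0.013 RPKM from 2 reads in Δ/Δ, and Il3 was listed at 0 in both. The growth factor receptor gene Kit measured 4.42 and 2.24 RPKM.

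Genes that carry the receptors' signal were all measured, 24 of 24, with a median log2 ratio of 0.03. Of them 2 were higher and 3 lower, beside 6.28% and 6.66% of all measured genes, too few to set the list apart. The kinase gene Syk (182 and 70.2 RPKM) and the phosphatase gene Ptpn6 (251 and 103 RPKM), both also active in B cell receptor signalling, were among the lower genes. The higher genes were Cish (6.22 and 14.5 RPKM), a feedback inhibitor induced by STAT5, and Tyrobp (9.73 and 21.0 RPKM), a myeloid adaptor named after its value was seen.

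Of 28 other listed transcription factors of myeloid cells, 17 were measured, 0 were higher and 3 lower by the size rule, beside 6.28% and 6.66% of all measured genes, with a median log2 ratio of -0.65. With values summed over transcripts, 1 was higher and 5 were lower. Nab2, a co-regulator of EGR factors, measured 3.88 RPKM in C/C against 0.562 in Δ/Δ. Spib, the relative of Spi1 that serves B cells and plasmacytoid dendritic cells, measured 294 and 109 RPKM. Gfi1b, the relative of Gfi1 in erythroid cells and platelets, measured 10.9 and 3.75 RPKM. The immediate early gene Nr4a1 (7.71 and 3.69 RPKM) was just short of the rule. Over factors with 20 reads or more, the plain-ratio rule found 5 of 26 higher and 7 lower, beside 11.4% and 12.0% of all genes so tested.

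Markers of other blood cells differed between the same libraries. They were counted by the plain-ratio rule, which found 11.4% higher and 12.0% lower among all 17377 genes with 20 reads or more in total. Several markers passed that filter through Δ/Δ alone, such as Mpo (0 and 202 reads), Elane (0 and 41), Ctsg (2 and 60) and Prss34 (0 and 274). Such genes could not have come out lower, so the counts of these lists support nothing by themselves. Of 17 neutrophil markers with 20 reads or more, 16 were at least 2-fold higher in Δ/Δ and 0 lower, and the list's summed level was 16.7 RPKM in C/C against 121.4 in Δ/Δ. The granule protein genes Mpo and Elane and the lectin gene Fcnb were listed at 0 in C/C. Mpo measured 0.434 RPKM in Δ/Δ. S100a8 (0.463 and 30.8 RPKM) had the largest ratio. Most of the neutrophil sum in Δ/Δ came from S100a9 (5.44 and 56.2 RPKM) and S100a8. Of 16 monocyte and macrophage markers 14 were higher and 0 lower, with ratios from 1.06 to 42.3, and Cd163 was listed at 0 in C/C. The list's summed level was 113 RPKM in C/C against 270.1 in Δ/Δ. Ctss, named after its value was seen, made up most of the C/C sum at 93.9 RPKM and measured 99.7 in Δ/Δ. Lyz2, the lysozyme gene of macrophages and neutrophils, measured 9.01 and 120.0 RPKM. Of 8 dendritic cell markers 7 were higher and 0 lower, with sums of 2.55 and 16.4 RPKM and Clec9a listed at 0 in C/C. Of 8 erythroid and megakaryocyte markers 7 were higher and 1 lower, with sums of 7.5 and 73.1 RPKM. Of 5 mast cell, basophil and eosinophil markers 4 were higher and 0 lower. Of 7 T and NK cell markers 3 were higher and 1 lower.

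The median ratio of the neutrophil markers was 10.4 and that of the monocyte and macrophage markers 7.54. It was 8.68 for the dendritic cell markers and 10.7 for the erythroid and megakaryocyte markers. Csf3r, at 9.70 to 15.4 by transcript, Cebpa at 10.7 and Cebpe at 20 lay among the ratios of the neutrophil markers. They also lay within those of the monocyte and macrophage markers (1.06 to 42.3) and of the dendritic cell markers (0.614 to 38.9). The erythroid and megakaryocyte markers, at 0.458 to 48.0, took them in as well, so this likeness sets no list apart. Csf1r at 1.77 and 2.48 and Cebpb at 1.62 lay toward the low end of the monocyte and macrophage markers. Of 15 B lineage markers 1 was higher and 6 were lower by the same rule, with sums of 5807 and 4346 RPKM and a median ratio of 0.596. Spi1, Gfi1 and Irf8, which B cell precursors also express, had ratios of 0.630, 0.511 and 0.789. In bulk RNA, fewer cells of a type and less RNA per cell cannot be told apart. The part of other cell types in the values of the 10 genes was not tested.

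**Figure D4:**
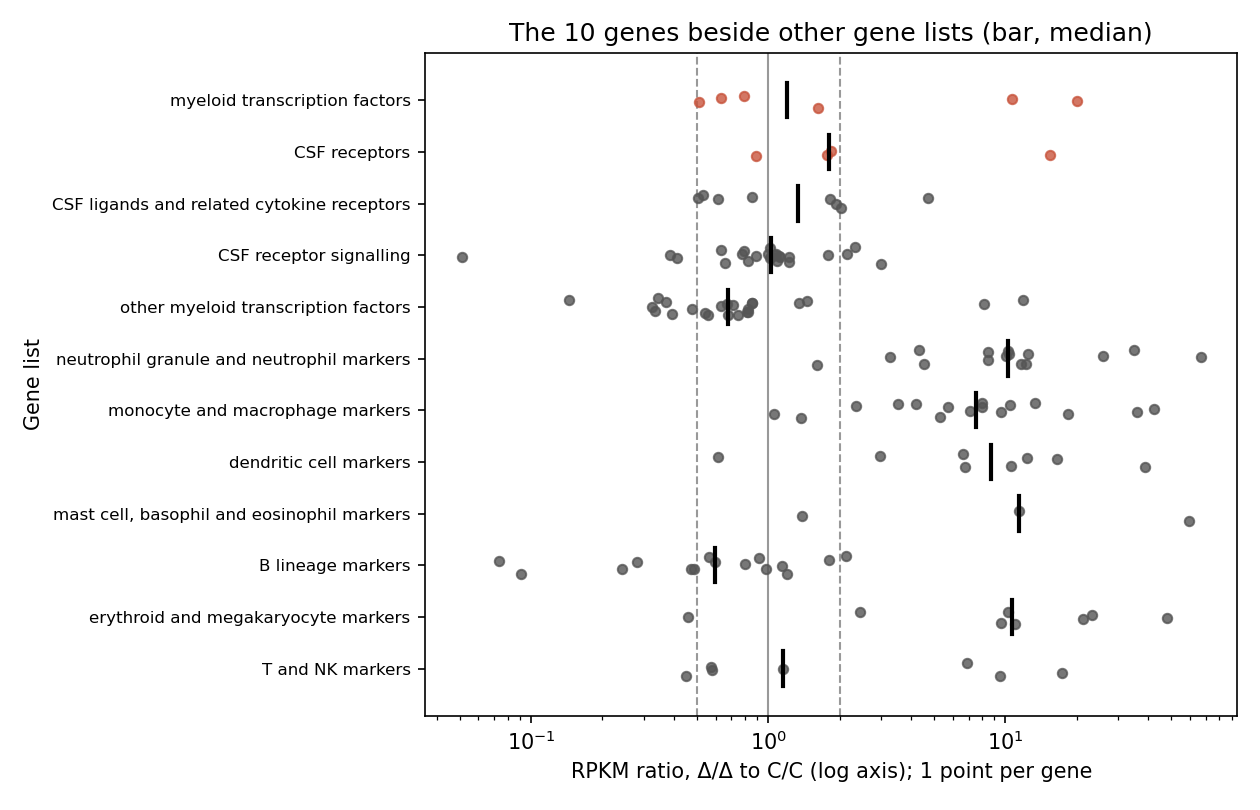
RPKM ratio of Δ/Δ to C/C (log axis) for 137 listed genes with 20 reads or more, 1 point per gene, with the 10 genes in red, other lists in grey, the median of the points drawn as a bar, and dashed lines at 0.5 and 2. Another 7 genes with 20 reads or more were listed at 0 in C/C, have no ratio and are not drawn. The 10 genes spread from Gfi1 at 0.511 to Cebpe at 20, while most neutrophil, monocyte and dendritic markers lie above 2.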

How the data were processed

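Per the labels' protocols, ribosomal RNA was depleted, TruSeq libraries were built and paired reads of 101 bases were sequenced. The authors deposited 1 RPKM value per transcript and library, rounded to 3 decimals. The submitters' processing notes name TopHat2 2.0.9, bedtools, mm9 and mm10. For the build and annotation of the table and the counting of shared reads, no statement is given in the sources used here. Wt was taken as C/C and Del as Δ/Δ.

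Transcripts were matched to GENCODE M21 (GRCm38), which named 89571 of 93615 (95.7%). Positions and lengths come from that annotation. Depth was the number of reads at which RPKM times length became whole: 96.5% (C/C) and 95.7% (Δ/Δ) of low values on transcripts of 100 to 800 bases lay within 0.1 of a whole read. More transcripts held 2 reads than 1 (641 against 588, 727 against 522), so 2 reads were taken as 1 fragment. At these depths 3 reads on 2 kilobases are 0.00879 and 0.00776 RPKM.

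The depth search, the size rule and the intervals were tested on simulated data. Sequences were aligned with Biopython 1.88. All 10 genes, Setdb1, Csf2rb2 and, of each other list, up to 4 measured genes with the largest log2 ratio were to be named. Genes outside this rule are given as overlapping genes, as sex or lineage checks, or as named after their values were seen. The genes and lists were chosen with earlier results of these data known. Alternatives covered pseudocount, scaling, transcript choice, filter and fold. Some results are not reported here.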

Additional observations from a re-analysis of the deposited data

How the results depend on the processing

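No log2 ratio of the 10 genes changed sign in 90 values over 9 settings of pseudocount, scaling and transcript choice. The genes that changed their side of the size rule were Cebpa at a pseudocount of 1 RPKM (0.70), Cebpe at 0.1 RPKM (1.36), and Csf1r with a transcript free of exons of other genes (1.17), a setting added after seeing the data. The count of higher genes among the 10 was 2 with no filter and 2 with such transcripts, 0 at filters of 5 RPKM and of a mean of 1 RPKM, 3 by a 1.5-fold rule, 0 by a 4-fold rule and 3 by the plain ratio. The count of lower genes was 2 by the 1.5-fold rule. Their median was 0.25 after centring, 0.44 with no filter, -0.25 at 5 RPKM and -0.17 at a mean of 1 RPKM; the filters keep fewer genes. Over all measured genes, 452 were higher and 510 lower at 5 RPKM, 1583 and 2101 by the 1.5-fold rule, and 220 and 234 by the 4-fold rule. The plain ratio found 1977 and 2079 among the 17377 genes with 20 reads or more. Of 260 counts over the other lists, 232 stayed within 1.5 times the reported count. No paired analysis was possible because each genotype had 1 library. Depth limits Cebpe and, in C/C, Csf3r and Cebpa.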

Other observations

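Of the 28 other myeloid transcription factors, 4 were listed at 0 in C/C and so could not be lower in Δ/Δ, while 7 of the 26 with 20 reads or more were at least 2-fold lower. Tfec, a macrophage relative of Mitf, measured 0.326 RPKM from 113 reads, Spic, the ETS factor of red pulp macrophages, 0.376 RPKM from 47 reads, and Batf3, a factor of cross-presenting dendritic cells, 0.080 RPKM from 12 reads. Other factors used by both B cells and myeloid cells were lower without passing the size rule, with Irf4 at 106 and 59.1 RPKM, Irf5 at 76.6 and 41.4 RPKM, and Zeb2 at 46.3 and 29.3 RPKM. Of the Src family kinase genes, Lyn measured 63.7 and 40.4 RPKM, and Fgr measured 0.45 and 1.35 RPKM, a ratio of 3.0 (interval 2.37 to 3.83). All were named after their values were seen.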
